A study of Homo sapiens with 6 samples.

Results

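The genes of respiratory complex I were examined for GABPA peaks, 48 in all, of which 36 encode subunits and 12 encode factors that help to assemble the complex. They were listed by name as parts or assembly factors of the complex, with earlier results of these data known, from the 19974 protein-coding genes that RefSeq places on chromosome X or on the autosomes. A gene was called marked when a peak had its summit at most 1 kb from the start or the end of the gene (RefSeq, GRCh38.p14). GABPA, the DNA-binding subunit of the transcription factor GABP, was mapped in the human melanoma line A-375 by ChIP-seq, a method that sequences the DNA pulled down with an antibody, and the antibody was the same throughout. The first condition, called B1 knockout here, had exon 2 of GABP's B1 subunit knocked out and then TERT, the catalytic subunit of telomerase, knocked in. The ROSA26 condition had a knockout at ROSA26, which often serves as a control locus. The parental condition had no knockout. Per the labels' protocols, knockout cells were isolated by sorting and grown as clones. Each condition had 1 ChIP library, with an input library not used here, and therefore no replicate, so no difference between conditions could be tested. The B1 knockout, the TERT knock-in and the clone cannot be told apart. The peak lists hold no expression, so the cell line was not checked against its marker genes.

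Complex I passes electrons from NADH to ubiquinone and pumps protons across the inner mitochondrial membrane. Its matrix arm consists of the N module, which oxidises NADH, and the Q module, which reduces ubiquinone. Its membrane arm is built from modules named after the mitochondrially encoded subunits around which they form, ND1 and ND2 near the matrix arm and ND4 and ND5 at the far end. Assembly factors join and stabilise these modules and leave the finished complex. The rest of the subunits are encoded in the nucleus, and GABP has long been known as a regulator of nuclear genes for mitochondrial respiration. It binds the ETS motif, whose core is GGAA.

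The lists hold 1660 peaks in the B1 knockout, 3857 in the ROSA26 and 3024 in the parental library, with median widths of 513, 636 and 585 bp in that order. The number of reads at a summit was recovered from the peak caller's values, and the median peak had 82 reads in the B1 knockout, 122 in the ROSA26 and 132 in the parental library. The most common background value was 9.11 in the B1 knockout, at 337 peaks, 14.2 in ROSA26, at 611 peaks, and 13.3 in the parental list, at 571 peaks, on the peak caller's scale. The B1 knockout library thus had the lowest of both values, and a gene without a listed peak there is not shown to be unbound. The part of this in the differences between libraries was not tested.

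Of the 48 complex I genes, 12 were marked in the B1 knockout, 20 in the ROSA26 and 19 in the parental library. These shares were 25% (95% interval 13.6 to 39.6), 41.7% (27.6 to 56.8) and 39.6% (25.8 to 54.7). With every list limited to its 1660 strongest peaks by p-value the counts were 12 in the B1 knockout, 11 in ROSA26 and 12 in the parental library. Equal length fixes the number of peaks in each list, though not how many of them lie at complex I genes. These counts thus describe the strongest peaks of each list. They cannot show whether fewer complex I genes were bound in the B1 knockout. With the full lists but only the nearest gene counted for each peak, the counts were 7 in the B1 knockout, 16 in ROSA26 and 13 in the parental library. Among all protein-coding genes, 9.32% were marked in the B1 knockout, 18.5% in the ROSA26 and 15.5% in the parental library. These shares use the full lists and every gene within 1 kb, and are no background for the limited settings. All 19 genes marked in the parental library were also marked in ROSA26, and NDUFV1 was marked in ROSA26 alone. Of the 19 genes marked in both controls, 12 also had a B1 knockout peak (63.2%, 38.4 to 83.7) and are called kept here. Among all genes marked in both controls, 60.4% were kept, so the share of complex I genes was near that of all genes. No complex I gene had a peak in the B1 knockout alone, and 28 had none in any library. Intervals are exact Clopper-Pearson intervals over genes and cover counting error only.

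**Figure D1:**
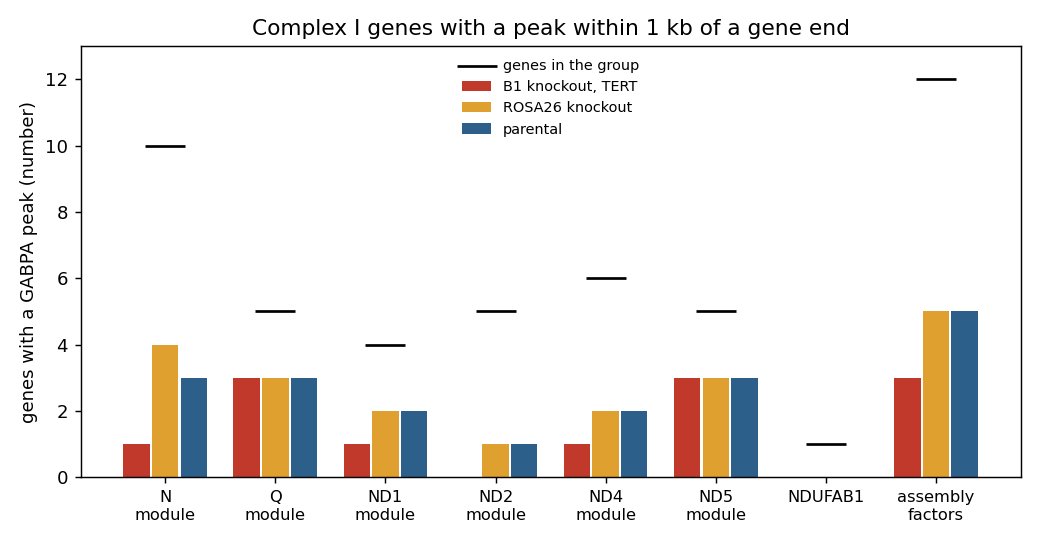
Number of complex I genes with a GABPA peak (y axis) in each structural module and among the assembly factors (x axis). Bars give the B1 knockout, ROSA26 and parental libraries from left to right, and the black line gives the number of genes in the group. The Q and ND5 modules have 3 marked genes in each library, whereas the N module has 1 in the B1 knockout, 4 in ROSA26 and 3 in the parental library.

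The counts differed between modules, to which subunits were assigned from general knowledge, with sources that differ for NDUFA6, NDUFA7, NDUFA9 and NDUFA11. In the Q module 3 of 5 genes, and in the ND5 module 3 of 5 genes, were marked in each library. In the N module 1 of 10 genes was marked in the B1 knockout, 4 in ROSA26 and 3 in the parental library. In the ND1 module, with 4 genes, the numbers were 1, 2 and 2, and in the ND4 module, with 6 genes, they were also 1, 2 and 2. In the ND2 module, with 5 genes, they were 0, 1 and 1. NDUFAB1, the acyl carrier protein that sits in both arms, had no peak in any library. Of the 12 assembly factors, 3 were marked in the B1 knockout, 5 in ROSA26 and 5 in the parental library. The groups are small, and the exact interval for 3 of 5 genes runs from 14.7 to 94.7%, so the modules cannot be ordered by these counts.

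The 28 genes with no summit within 1 kb of an end in any library came from every group. They were NDUFV2, NDUFV3, NDUFS4, NDUFS6, NDUFA6 and NDUFA7 of the N module, NDUFA5 and NDUFA9 of the Q module, and NDUFA3 and NDUFA8 of the ND1 module. NDUFA10, NDUFA11, NDUFC1 and NDUFS5 of the ND2 module, NDUFB1, NDUFB4, NDUFB10 and NDUFB11 of the ND4 module and NDUFB2 and NDUFB8 of the ND5 module also had none. The remaining genes without a peak were NDUFAB1 and the assembly factors NDUFAF2, NDUFAF3, NDUFAF4, NDUFAF5, NDUFAF6, ACAD9 and NUBPL. With the limit set at 2 kb, NDUFAF3 had a peak in both controls and none in the B1 knockout. NDUFAF2 and NDUFAF5 act in the late and early steps of assembly, and ACAD9 and NUBPL are an acyl-CoA dehydrogenase relative and a factor for iron-sulfur clusters.

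The strongest complex I peak of each list belonged to NDUFS3, a Q module subunit that binds no iron-sulfur cluster (chromosome 11, 47579074 to 47584562). Its fold enrichment (in every case the value that the authors' list gives a peak) was 18.5 in the B1 knockout, 22.2 in the ROSA26 and 18.5 in the parental list. The summit held 300 reads in the B1 knockout, 470 in the ROSA26 and 428 in the parental library. Its −log10 p was 248 in the B1 knockout, 450.1 in the ROSA26 and 325.03 in the parental list. The peak ranked 19th, 11th and 33rd of its list in that order. Its parental summit, at 47579003, lay 71 bp before the NDUFS3 start and 33 bp from an end of KBTBD4, a ubiquitin ligase adaptor gene on the other side of the peak.

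The other members with high folds lay in both arms and among the assembly factors. TIMMDC1 (chromosome 3, 119498547 to 119525090), which helps to build the ND1 part of the membrane arm, had folds of 9.77 in the B1 knockout, 17.9 in the ROSA26 and 14.96 in the parental list. NDUFB3 (chromosome 2, 201072001 to 201085750), an ND5 module subunit, had folds of 8.78, 15.99 and 12.8 in the same order. NDUFA13 (chromosome 19, 19516225 to 19528198), an ND1 module subunit that spans the membrane, had folds of 7.47 in the B1 knockout, 12.5 in ROSA26 and 12.1 in the parental list. At the summits, TIMMDC1 had 147 reads in the B1 knockout, 271 in ROSA26 and 316 in the parental library, NDUFB3 had 110, 264 and 211, and NDUFA13 had 151, 344 and 345. These 3 genes stood above the median of their list in every library (5.81 in the B1 knockout, 6.02 in ROSA26 and 6.36 in the parental list). NDUFS1 (chromosome 2, 206114817 to 206159444), the largest subunit and a carrier of iron-sulfur clusters in the N module, had folds of 4.49, 13.4 and 10.9 in the same order and stood below that median in the B1 knockout alone.

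The −log10 p, which grows with both fold and depth, was set beside the folds. TIMMDC1 had 86.7 in the B1 knockout, 238 in ROSA26 and 217 in the parental list, and NDUFB3 had 61.6, 219 and 135. NDUFA13 had 73.7 in the B1 knockout, 247 in ROSA26 and 209 in the parental list, and NDUFS1 had 16.8, 155 and 105. All 4 thus had their highest value in ROSA26 and their lowest in the B1 knockout. The summit lay close to the own start in each case. It was 60 bp away in the B1 knockout, 30 bp in ROSA26 and 32 bp in the parental list for TIMMDC1, and 29, 24 and 53 bp for NDUFB3. For NDUFA13 it was 35, 11 and 10 bp and for NDUFS1 153, 196 and 160 bp away in the same order.

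To show what lies under these summits, the 121 bases around the parental summit are printed for the 5 members with the highest parental folds and for NDUFB7, the ND5 subunit whose percentile stood furthest above its parental one in the B1 knockout, as far as the RefSeq promoter window reaches. They are read 5′ to 3′ on the strand of the gene, with base 61 at the summit, and capitals mark the ETS motif CCGGAAG or its reverse complement CTTCCGG. The positions on GRCh38.p14 are chr11:47578943-47579063 (plus strand) for NDUFS3, chr3:119498455-119498575 (plus strand) for TIMMDC1, chr2:201071888-201072008 (plus strand) for NDUFB3, chr19:19516155-19516274 (plus strand) for NDUFA13, chr2:206159544-206159664 (minus strand) for NDUFS1 and chr19:14572017-14572130 (minus strand) for NDUFB7.
NDUFS3: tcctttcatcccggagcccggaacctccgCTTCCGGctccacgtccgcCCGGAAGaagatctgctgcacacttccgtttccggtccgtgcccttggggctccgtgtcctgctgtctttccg
TIMMDC1: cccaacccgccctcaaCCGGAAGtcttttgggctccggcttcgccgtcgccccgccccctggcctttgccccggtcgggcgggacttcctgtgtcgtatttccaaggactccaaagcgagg
NDUFB3: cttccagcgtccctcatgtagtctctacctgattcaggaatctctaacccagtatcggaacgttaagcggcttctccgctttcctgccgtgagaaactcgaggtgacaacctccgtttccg
NDUFA13: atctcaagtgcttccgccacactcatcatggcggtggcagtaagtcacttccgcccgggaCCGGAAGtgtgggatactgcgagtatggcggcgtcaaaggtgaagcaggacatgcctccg
NDUFS1: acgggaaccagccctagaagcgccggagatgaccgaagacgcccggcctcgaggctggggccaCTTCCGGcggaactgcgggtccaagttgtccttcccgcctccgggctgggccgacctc
NDUFB7: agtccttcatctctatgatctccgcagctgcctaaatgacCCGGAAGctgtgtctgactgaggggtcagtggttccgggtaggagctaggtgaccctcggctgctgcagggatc

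In these stretches NDUFS3 holds 2 motif matches on opposite strands, and NDUFA13, NDUFS1, NDUFB7 and TIMMDC1 hold 1 each. A further match of TIMMDC1 lies upstream of the stretch shown. NDUFB3, which had the third highest parental fold of the 48 genes, holds no match of all 7 letters. It does hold the shorter CGGAA, which includes the core GGAA, directly before its summit.

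**Figure D2:**
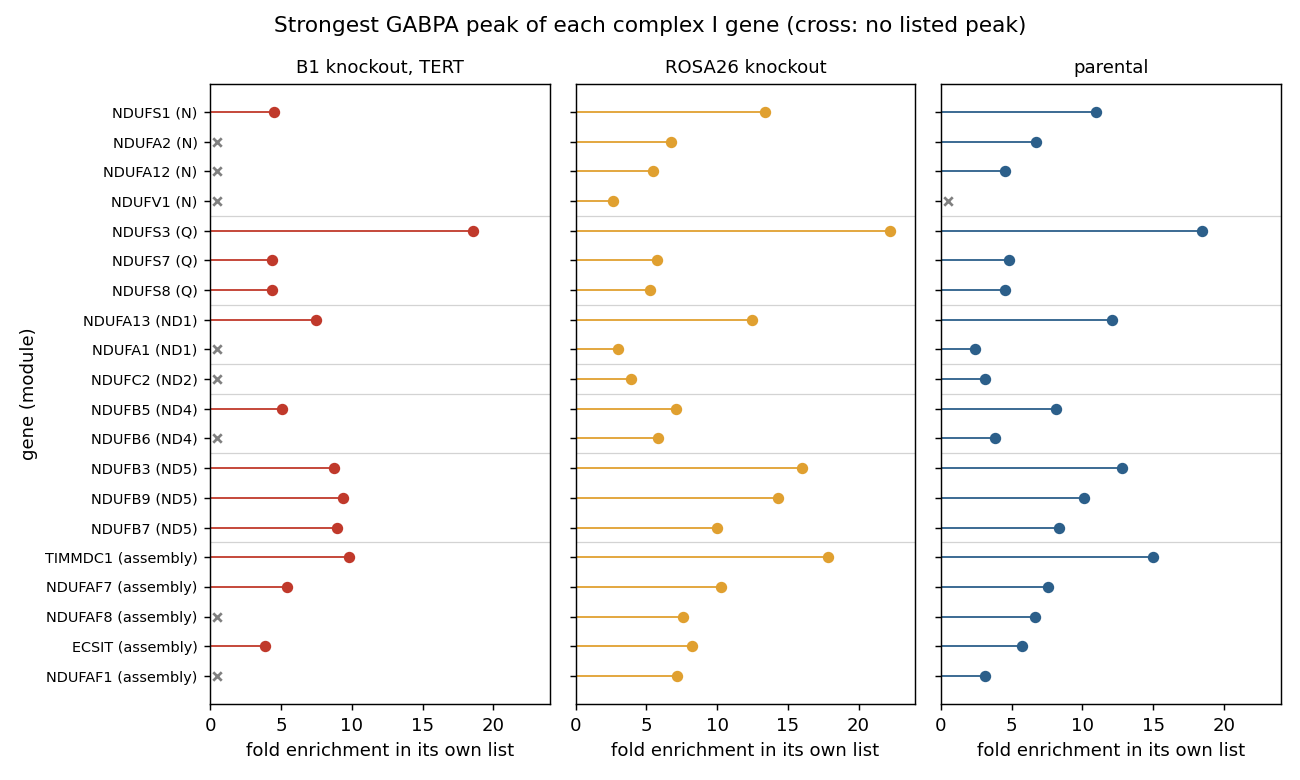
Fold enrichment (x axis) of the strongest peak of each of the 20 complex I genes with a peak in any library (y axis, grouped by module), with 1 panel for each library. Crosses mark genes with no listed peak, 8 in the B1 knockout and 1 in the parental list. NDUFS3 stands furthest right in each panel.

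The kept genes of the matrix arm were NDUFS3, NDUFS7 and NDUFS8 in the Q module and NDUFS1 in the N module. NDUFS7 and NDUFS8, which carry the iron-sulfur clusters nearest to ubiquinone, were marked weakly. NDUFS7 (chromosome 19, 1383907 to 1395584) had folds of 4.40 in the B1 knockout, 5.77 in ROSA26 and 4.84 in the parental list. NDUFS8 (chromosome 11, 68030681 to 68036644) had folds of 4.39, 5.27 and 4.55 in the same order. Both were kept although their parental folds were low. All genes marked in both controls were split into 4 bins by parental fold. In the lowest bin (2.05 to 4.72), which holds NDUFS8, 8.36% of 766 genes were kept. In the next bin (up to 7.08), which holds NDUFS7, 48.3% of 766 genes were. NDUFS8 lay near the upper edge of its bin and NDUFS7 near the lower edge of the next, so these shares do not set the genes apart.

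In the membrane arm NDUFA13, NDUFB3, NDUFB5, NDUFB7 and NDUFB9 were kept. NDUFB7 (chromosome 19, 14566078 to 14572066), an ND5 module subunit on the intermembrane side, had folds of 8.93 in the B1 knockout, 10.01 in ROSA26 and 8.35 in the parental list. NDUFB9 (chromosome 8, 124539123 to 124549979), a subunit of the same module, had folds of 9.40, 14.3 and 10.1 in the same order. At the summits, NDUFB7 had 184 reads in the B1 knockout, 321 in ROSA26 and 248 in the parental library, and NDUFB9 had 121, 287 and 222. Their −log10 p was 102 in the B1 knockout, 202 in ROSA26 and 120.1 in the parental list for NDUFB7, and 70.4, 224 and 122 for NDUFB9. All 3 marked ND5 genes thus stood above the list median in each library. NDUFB5 (chromosome 3, 179604794 to 179627647), in the ND4 module, had folds of 5.04 in the B1 knockout, 7.09 in ROSA26 and 8.16 in the parental list. Its −log10 p was 20.4, 69.6 and 66.04 in the same order. The B1 knockout summit lay 2 bp from an end of MRPL47, a mitochondrial ribosomal protein gene, the ROSA26 summit 115 bp and the parental summit 54 bp from it. The distance to the NDUFB5 start was 150 bp in the B1 knockout, 33 bp in ROSA26 and 94 bp in the parental list.

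Among the assembly factors TIMMDC1, NDUFAF7 and ECSIT were kept. NDUFAF7 (chromosome 2, 37231658 to 37271365), a methyltransferase that acts on a Q module subunit, had folds of 5.40 in the B1 knockout, 10.2 in ROSA26 and 7.58 in the parental list, with a −log10 p of 41.7, 175 and 103. ECSIT (chromosome 19, 11505929 to 11529134), which acts early in assembly of the membrane arm, had a peak at each end of its span. At its start the folds were 3.48 in the B1 knockout, 8.19 in ROSA26 and 5.76 in the parental list. At its other end, 2 bp from an end of the zinc finger gene ZNF653 in both controls, they were 3.89, 7.64 and 4.53 in the same order. The distance from that second peak to ECSIT's own end was 89 bp in the B1 knockout and 92 bp in both controls.

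Among the 19 complex I genes with a peak in both controls, 7 had no B1 knockout peak, and among all genes marked in both controls 39.6% had none. They were NDUFA2 and NDUFA12 of the N module, NDUFA1, NDUFC2 and NDUFB6 of the membrane arm, and the assembly factors NDUFAF1 and NDUFAF8. Their median parental fold was 3.78, against 9.23 for the 12 kept genes. The same medians over all protein-coding genes were 4.31 for genes not kept and 9.38 for kept genes. In the upper pair of the 4 bins of parental fold, all 9 complex I genes were kept, as were 87.3% of 765 and 97.8% of 766 genes in all. In the lower pair 3 of 10 were kept, namely NDUFS8, NDUFS7 and ECSIT.

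NDUFA2 and NDUFAF8 had the highest parental folds among those not kept. NDUFA2 (chromosome 5, 140645285 to 140647630), an N module subunit with a thioredoxin-like fold, had no listed B1 knockout peak and folds of 6.77 in ROSA26 and 6.71 in the parental list, with 167 and 147 reads at the summit in that order. Its parental summit, at 140647805, lay 24 bp from an end of IK, a splicing factor gene, 73 bp from an end of TMCO6 and 175 bp from its own start. NDUFAF8 (chromosome 17, 81239311 to 81241310), which stabilises the assembly factor NDUFAF5, had no listed B1 knockout peak and folds of 7.61 in ROSA26 and 6.66 in the parental list. NDUFA12 (chromosome 12, 94971333 to 95003697), which takes the place of NDUFAF2 late in assembly, had none in the B1 knockout and folds of 5.48 in ROSA26 and 4.52 in the parental list. The corresponding stretches are shown for these 3 genes, to set them beside the kept ones, in the same layout. The positions are chr5:140647745-140647865 (minus strand) for NDUFA2, chr17:81239219-81239339 (plus strand) for NDUFAF8, chr12:95003718-95003838 (minus strand) for NDUFA12.
NDUFA2: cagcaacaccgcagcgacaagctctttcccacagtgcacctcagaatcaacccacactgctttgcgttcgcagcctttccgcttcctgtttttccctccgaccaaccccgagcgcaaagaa
NDUFAF8: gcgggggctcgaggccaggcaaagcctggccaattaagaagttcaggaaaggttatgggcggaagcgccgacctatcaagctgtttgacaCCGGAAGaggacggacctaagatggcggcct
NDUFA12: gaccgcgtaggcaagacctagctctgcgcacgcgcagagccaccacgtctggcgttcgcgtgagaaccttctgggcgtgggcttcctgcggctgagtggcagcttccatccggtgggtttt

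NDUFAF8 holds 1 match of CCGGAAG, and NDUFA2 and NDUFA12 hold none in these stretches. The shorter CGGAA lies at the summit of NDUFAF8, apart from that match, and its reverse complement lies in the stretch of NDUFA2. The 4 other genes not kept had weaker parental peaks. NDUFB6 (chromosome 9, 32553001 to 32573159), an ND4 module subunit, had no B1 knockout peak and a peak at each end of its span in both controls. At its own start the folds were 3.99 in ROSA26 and 3.53 in the parental list. At the opposite end, 220 bp from an end of TOPORS in ROSA26 and 262 bp in the parental list, they were 5.80 and 3.78. NDUFAF1 (chromosome 15, 41387353 to 41403026), a partner of ECSIT, had no B1 knockout peak and folds of 7.15 in ROSA26 and 3.08 in the parental list and 122 and 99 reads at the summit. The local background there was 16.2 in ROSA26 and 27 in the parental library. The parental summit lay inside the gene, 529 bp from the nearer end but 1 bp from another RefSeq start of NDUFAF1. NDUFC2 (chromosome 11, 78068297 to 78079862), an ND2 module subunit, had folds of 3.92 in ROSA26 and 3.09 in the parental list. NDUFA1 (chromosome X, 119871832 to 119876662), an ND1 module subunit, had folds of 3.02 in ROSA26 and 2.42 in the parental list, and its parental peak ranked 3010th of 3024.

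The −log10 p in the controls was 81.3 in ROSA26 and 61.8 in the parental list for NDUFA2, 96.2 and 48.5 for NDUFAF8, and 45.97 and 31.2 for NDUFA12. It was 48.7 in ROSA26 and 19.98 in the parental list for NDUFB6, 63.3 and 18.9 for NDUFAF1, 26.1 and 16.6 for NDUFC2, and 10.7 and 5.86 for NDUFA1. NDUFA1 was thus the lowest of the 7 in both controls.

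To set these values beside the B1 knockout list, they were also computed at its most common background. There, the same fold would give NDUFA2 a −log10 p of 35.04 from its ROSA26 and 34.2 from its parental fold, and NDUFAF8 42.3 and 34.2. The B1 knockout list itself has a lowest −log10 p of 4.74, a 10th percentile of 13.6 and a median of 34.2. The scaled values of NDUFA12 were 24.2 from ROSA26 and 16.8 from the parental fold, those of NDUFB6 26.6 and 12.1, and those of NDUFAF1 38.6 and 7.98. They were 12.7 and 7.98 for NDUFC2 and 7.45 and 4.53 for NDUFA1. From the parental fold NDUFA2, NDUFAF8 and NDUFA12 thus stood above the 10th percentile of the B1 knockout list, and NDUFB6, NDUFAF1, NDUFC2 and NDUFA1 below it. From the ROSA26 fold NDUFB6 and NDUFAF1 also stood above it, and only NDUFC2 and NDUFA1 below. All of these scaled values stood above the lowest of that list, 4.74, except the one from the parental fold of NDUFA1. The scaling uses 1 background for every gene, and the local B1 knockout background at these genes is not known. Over a higher background the same fold would give a higher −log10 p. In the parental library the local background at NDUFAF1 was 27, against a most common value of 13.3. NDUFV1 (chromosome 11, 67606936 to 67612554), the NADH-binding subunit of the N module, had 1 peak, in ROSA26, with a fold of 2.66.

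Ranks were compared over the 1628 merged regions that are listed in all 3 libraries, so that each list is ranked over the same regions. The 12 kept complex I genes stood at a median percentile of 55.6 in the B1 knockout, 57.6 in ROSA26 and 50.3 in the parental list. NDUFS3 stood at percentile 98.9 in the B1 knockout, 99.4 in ROSA26 and 98.03 in the parental list. NDUFS1 stood at percentile 27.1 in the B1 knockout, 75.2 in ROSA26 and 67.9 in the parental list, and thus well below its place in both controls. Of the 1628 regions, 3.75% had a difference between B1 knockout and parental percentile as low as this or lower. NDUFS1 was picked as the lowest of the 12 kept genes in this difference, so that share does not show it to be unusual. At its summit 48 reads were recovered in the B1 knockout, 203 in ROSA26 and 180 in the parental library. Its −log10 p in the B1 knockout list was 16.8, whereas the parental fold at the B1 knockout background would give 76.6. The parental summit lay 5 bp from an end of EEF1B2, a translation elongation factor gene, and 160 bp from that of NDUFS1.

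NDUFB7 differed in the opposite direction and was likewise picked, as the highest of the 12 kept genes in this difference. It stood at percentile 78.4 in the B1 knockout, 44.2 in ROSA26 and 40.6 in the parental list, and 3.93% of the 1628 regions had a difference between B1 knockout and parental percentile as high or higher. NDUFS7 stood at 25.3, 6.45 and 5.22 and NDUFS8 at 24.97, 4.18 and 3.87 in the same order, so both lay higher in the B1 knockout than in the controls. A difference from the parental percentile as high or higher was found in 16.5% of the 1628 regions for NDUFS7 and 15.0% for NDUFS8. Both stood near the bottom in the controls, where a percentile has little room to fall. NDUFB9 stood at 81.6 in the B1 knockout and 80.2 in ROSA26, but at 60.01 in the parental list. The standard deviation of the difference in percentile over all 1628 regions was 21.4 between B1 knockout and parental and 16.2 between ROSA26 and parental. With 1 library per condition these ranks describe the lists and carry no test, and regions enter the set only if the B1 knockout list holds them.

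**Figure D3:**
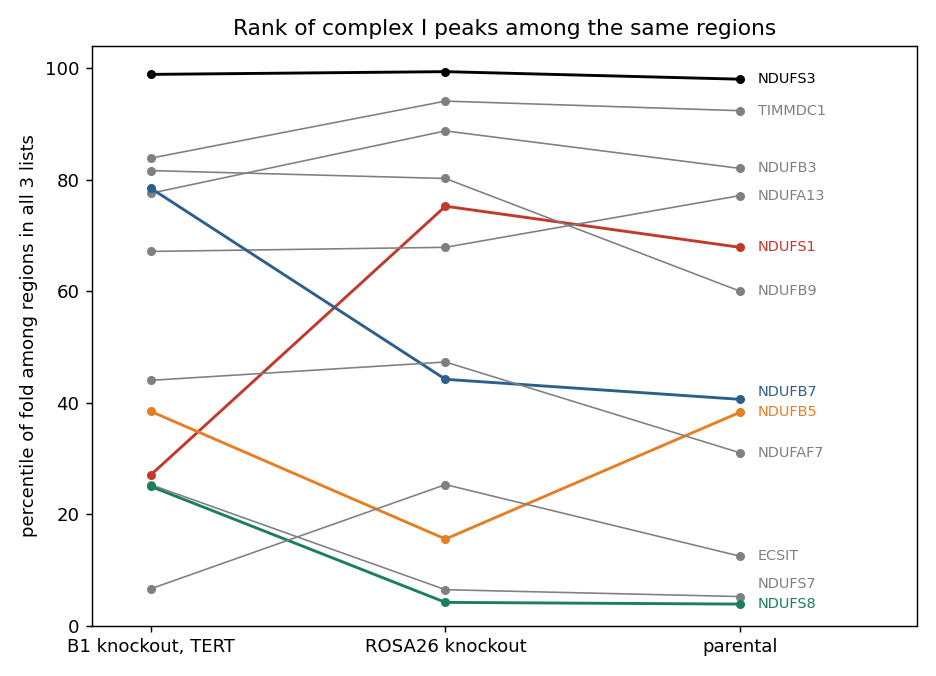
Percentile of fold (y axis) of the peaks of the 12 kept complex I genes among the 1628 regions listed in all 3 libraries (x axis: B1 knockout, ROSA26 and parental). Each line is 1 gene. NDUFS1 stands at 27.1 in the B1 knockout and at 75.2 and 67.9 in the ROSA26 and parental lists, and NDUFB7 at 78.4 in the B1 knockout and 44.2 and 40.6 in the ROSA26 and parental lists.

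Complex I genes often shared their peak with a neighbour. The strongest peak lay within 1 kb of an end of another protein-coding gene for 8 of 12 marked genes in the B1 knockout, 12 of 20 in ROSA26 and 12 of 19 in the parental library. Over all marked genes the shares were 46.7% in the B1 knockout, 42.2% in ROSA26 and 43.5% in the parental library. Besides those named above, the parental peak of NDUFB9 lay 27 bp from an end of TATDN1 and 62 bp from its own. That of NDUFAF7 lay 17 bp from an end of CEBPZ and 45 bp from its own. The other shared parental peaks lay 667 bp from an end of TSSK6 for NDUFA13, 277 bp from HYCC2 for NDUFB3, 275 bp from RNF113A for NDUFA1 and 224 bp from TEPSIN for NDUFAF8. For NDUFC2 the other gene is NDUFC2-KCTD14, a readthrough of NDUFC2 itself. The peaks of NDUFA12, NDUFB7, NDUFS7, NDUFS8, NDUFAF1, TIMMDC1 and the start of ECSIT lay near no other protein-coding gene end, although that of NDUFS8 lay 25 bp from an end of the long non-coding RNA GLTC1 in the parental list. Of the 12 genes with a shared parental peak 7 were kept (58.3%, 27.7 to 84.8) and of the 7 others 5 (71.4%, 29.04 to 96.3). Over all genes 65.1% of 1329 with a shared parental peak and 56.9% of 1734 others were kept, which is the opposite order, and the complex I intervals include both shares. A shared peak cannot be assigned to 1 of its genes.

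Summits stayed close to the same position in the 3 libraries. The B1 knockout summit of the 12 kept genes lay a median of 23.5 bp from the parental summit, and at most 56 bp, at NDUFB5. The ROSA26 summit lay a median of 19 bp from the parental one over 19 genes, and at most 206 bp, at NDUFA1. The distance to the nearer gene end had a median of 63 bp in the B1 knockout, 45.5 bp in ROSA26 and 62 bp in the parental library, against 62, 76 and 72 bp over all marked genes.

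The ETS motif CCGGAAG, on either strand, was looked for in the RefSeq promoter window of 300 bases, from 250 before to 50 after each start. It was found in 12.8% of 22132 windows of protein-coding genes. The table holds 43 of the 48 complex I genes, without NDUFC2, NDUFS5, NDUFB5, NDUFB9 and NDUFAF6, and a gene was counted when any of its windows held the motif. Of the 10 genes marked in all 3 libraries, 5 held it (50%, 18.7 to 81.3), and of the 6 marked in both controls only, 2 did (33.3%, 4.33 to 77.7). Of the 26 without a peak, 1 did (3.85%, 0.0973 to 19.6), namely NDUFAF4, which acts with NDUFAF3. Over all genes in the table the shares in the same order were 64.0% of 1601, 44.9% of 1023 and 7.56% of 12638. Each complex I interval includes the corresponding share of all genes.

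Where a complex I promoter held the motif and the gene was marked, the distance between summit and motif was measured. The nearest motif centre lay within 60 bp of the summit for 5 of 5 genes in the B1 knockout, 7 of 7 in ROSA26 and 6 of 7 in the parental library. The motif was sought only in the window around the start. Over all marked complex I genes, the summit lay a median of 63 bp from the nearer gene end in the B1 knockout. This median was 45.5 bp in ROSA26 and 62 bp in the parental library. Some closeness of summit and motif is therefore given by the window. The same counts were not made over all marked genes, so they describe these complex I genes only. At NDUFS1 the distance was 1 bp in the B1 knockout, 42 bp in ROSA26 and 6 bp in the parental library. At NDUFS3, where 2 matches lie 19 bp apart, it was 14, 2 and 9 bp in the same order. At NDUFA13 it was 28 bp in the B1 knockout, 4 bp in ROSA26 and 3 bp in the parental library. At NDUFA1 the ROSA26 summit lay 14 bp from the motif and the weak parental summit 220 bp from it. A match is a description of the letters and not a binding site, and windows without it say nothing about binding.

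**Figure D4:**
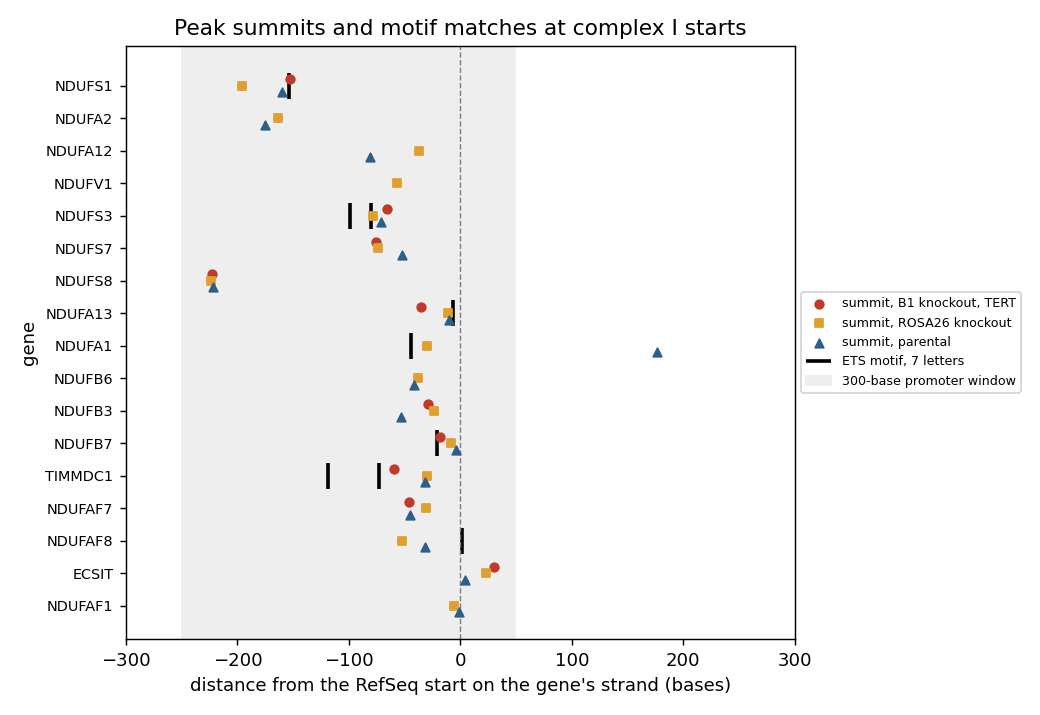
Position of peak summits relative to the RefSeq start (x axis, in bases on the strand of the gene) for the 17 marked complex I genes with a promoter in the table (y axis). Symbols give the B1 knockout, ROSA26 and parental summit nearest to the start, black bars the matches of the 7-letter ETS motif and grey the 300-base window. Of the summits shown, only the parental one of NDUFA1 lies outside the window, 176 bases after the start.

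A list of 11 further assembly factors of complex I outside the 48 genes was counted in the same way. Of these, 4 were marked in the B1 knockout, 7 in ROSA26 and 5 in the parental library, and 4 of 5 with a peak in both controls were kept. Over all protein-coding genes 9.32%, 18.5% and 15.5% were marked in the same order, and 60.4% of those marked in both controls were kept. TMEM186 and COA1, which work with ECSIT and NDUFAF1 in assembly of the ND2 part, were both kept. TMEM186 had folds of 5.92 in the B1 knockout, 13.3 in ROSA26 and 8.22 in the parental list, and COA1 had 4.52, 9.13 and 7.60. FOXRED1, an oxidoreductase, had folds of 8.16 in the B1 knockout, 13.9 in ROSA26 and 10.9 in the parental list. DMAC2 was kept with folds of 3.73, 5.90 and 2.72 in the same order. DMAC1 had no B1 knockout peak and folds of 4.14 in ROSA26 and 4.29 in the parental list. TMEM126A (2.95) and LYRM2 (3.80) were marked in ROSA26 alone, and the other 4 had no peak. The differences between these lists were not tested.

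Subunits of the other respiratory complexes were counted in the same way. Of 13 subunits of complexes II and III, 4 were marked in the B1 knockout, 6 in ROSA26 and 6 in the parental library. Of 10 subunits of complex IV the numbers were 4, 6 and 6, and of 17 subunits of ATP synthase they were 6, 8 and 6. Over all protein-coding genes 9.32% were marked in the B1 knockout, 18.5% in ROSA26 and 15.5% in the parental library. Among those with a peak in both controls, 12 of 19 were kept for complex I, 4 of 6 for complexes II and III, 4 of 6 for complex IV and 6 of 6 for ATP synthase. Over all genes 60.4% were kept. The 6 ATP synthase genes had a median parental fold of 10.1. In the bin of parental fold that holds this value (7.08 to 10.3), 87.3% of all genes were kept. The 6 folds ran from 4.70 to 18.4, however, and thus also fell in other bins. These include the lowest (up to 4.72), with 8.36% of all genes kept, and the highest (above 10.3), with 97.8%. No test of these differences was made.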

How the data were processed

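GABPA ChIP-seq peak lists of 3 libraries were used. Per the submitters' processing notes, the authors used Bowtie2, SAMtools and MACS2 with the build hg38. Versions and thresholds, not given in the sources used here, could change which weak peaks are listed. The deposited lists give each peak, called per library, a fold enrichment, −log10 p, −log10 q and a score. The score equals 10 times −log10 q, truncated. Whole reads at each summit were solved from the authors' fold ratio and p-value with the Poisson formula of MACS2 (Python 3.11.15, SciPy 1.17.1, NumPy 2.4.6, pandas 2.3.3), which was tested on simulated data. Where several solutions were possible (319 peaks in the B1 knockout, 1692 in ROSA26 and 586 in the parental list), the one closest to a whole number of reads, at the scale factor fitted for the list, was taken, so their read numbers are estimates. Reads without molecular identifiers are not independent molecules. A peak was assigned to each gene with an end within 1 kb of its summit, and the strongest was used. Gene spans and promoters come from RefSeq, GRCh38.p14. All members are named, those with a peak with their folds. Other genes are named where they share a peak with a member or, among the further assembly factors, where they have a peak. The members and lists were chosen with earlier results of these data known. With 1 library per condition no test was run. Figures were drawn with Matplotlib 3.10.9.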

Additional observations from a re-analysis of the deposited data

How the results depend on the processing

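Of 114 alternative values, 99 stayed close to the reported one and 15 moved by more. Counts, medians and shares have no direction, so none could reverse. The 99 include counts that were 0 in every setting, such as that of kept ND2 module genes. Close means within 1.5 times for a count and within the 95% interval of the reported share for a motif share. The median fold of marked genes, 6.43 in the B1 knockout, 7.38 in ROSA26 and 6.71 in the parental list, was the same with another choice among a gene's peaks. Only ECSIT and NDUFB6 had more than 1 peak in a library, so these medians could hardly move. With only the nearest gene per peak, 7 complex I genes were marked in the B1 knockout and 7 of 13 were kept (53.8%, against 57.9% of all genes), without NDUFS1, NDUFS3, NDUFB5, NDUFB9 and NDUFAF7. With lists of equal length, 12 were marked in the B1 knockout, 11 in ROSA26 and 12 in the parental list, and 9 of 11 were kept (81.8%, against 89.0% of all genes). With the shorter motif CGGAA, the share of genes holding it was 90.0% of those marked in all 3 libraries, 83.3% of those marked in both controls only and 38.5% of those without a peak, against 92.2%, 83.3% and 39.3% over all genes. With the longer motif CCGGAAGTG, it was 30% for genes marked in all 3 libraries and 0% both for genes marked in both controls only and for genes without a peak, against 23.7%, 11.05% and 0.815% over all genes. The shorter motif is part of CCGGAAG, which is part of the longer one. No paired analysis was possible because each condition had 1 library. The planned search in a window centred on each summit was not run, since no genome sequence was used here. A gene without a listed peak may hold one below the caller's limit.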

Other observations

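NDUFC1, an ND2 module subunit with no peak near either end of its span, had 2 peaks inside its span in ROSA26 and none in the B1 knockout or parental list. Their folds were 4.47 and 3.94, and the stronger lay 233 bp from another RefSeq start of NDUFC1 and within 1 kb of an end of NAA15, so it cannot be assigned to 1 of these genes. They belong to 1 library and were not tested.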
